A study of Mus musculus with 14 samples.

Results

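The 9 genes described here make up the MHC class II presentation route, as measured in liver RNA of mice injected with concanavalin A (ConA), a plant lectin that activates T cells and causes hepatitis. They were chosen by gene symbol, and all 9 were found among the 17656 genes listed in every library. They are the chain genes H2-Aa, H2-Ab1 and H2-Eb1, the invariant chain gene Cd74, the peptide editor genes H2-DMa and H2-DMb1, the protease gene Ctss, the thiol reductase gene Ifi30 and the transactivator gene Ciita. The study asked how loss of YTHDF1, a reader protein of methylated adenosine in mRNA, alters this hepatitis. Total RNA was taken from homogenized liver of mice aged 8 weeks. Each library was taken as 1 mouse, since the labels number replicates and the methods of the study call them biological replicates. WT mice and Ythdf1 knockout mice, called KO below and both on a C57BL/6 background, received saline or ConA at 8 mg/kg through the tail vein, and livers were collected 8 h later. There were 3 mice of each genotype with saline and 4 of each with ConA, named WT saline, WT ConA, KO saline and KO ConA. The knockout was made with CRISPR/Cas9 and covers the whole body, immune cells included.

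Class II molecules carry peptides of ingested proteins to the cell surface, where CD4+ T cells read them. Each is a pair of an alpha and a beta chain, H2-Aa with H2-Ab1 in the I-A molecule, while H2-Eb1 codes for the beta chain of I-E. No alpha chain gene of I-E is among the genes described here, so H2-Eb1 RNA does not show that I-E was made. The invariant chain (Cd74) fills the groove of the new pair and guides it to endosomes, where cathepsin S (Ctss) trims the chain, the H2-DM heterodimer exchanges its last fragment for peptide, and GILT (Ifi30) opens disulfide bonds of antigens. Transcription of these genes is governed by CIITA, which binds no DNA itself and is recruited by RFX, CREB and NF-Y proteins on a conserved set of promoter boxes, and which interferon gamma induces in many cells. In liver the route is known from Kupffer cells, the resident macrophages, and from dendritic cells, B cells and sinusoidal endothelium.

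The promoters of H2-Aa, H2-Eb1 and H2-DMb1 are shown because they carry this shared layout, and that of Ctss because it differs. Promoter entries of RefSeq on GRCm38.p6 matched 6 of the 9 genes. The stretches are the 110 bases before the annotated start of each gene, read 5′ to 3′ on the strand of the gene: chr17:34287824-34287933 (minus strand) for H2-Aa, chr17:34305757-34305866 (plus) for H2-Eb1, chr17:34153081-34153190 (plus) for H2-DMb1 and chr3:95526676-95526785 (plus) for Ctss. In the sequences of H2-Aa, H2-Eb1 and H2-DMb1, capitals mark the X box core (GNAACT) and the Y box (TGATTGG, an inverted CCAAT box), and in that of Ctss they mark the core of an interferon response element (GAAA, any 2 bases, GAAA).
H2-Aa: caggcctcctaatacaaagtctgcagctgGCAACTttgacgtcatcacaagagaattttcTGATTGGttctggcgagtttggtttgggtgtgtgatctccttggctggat
H2-Eb1: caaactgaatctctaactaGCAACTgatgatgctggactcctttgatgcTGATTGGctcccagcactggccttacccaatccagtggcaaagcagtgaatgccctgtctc
H2-DMb1: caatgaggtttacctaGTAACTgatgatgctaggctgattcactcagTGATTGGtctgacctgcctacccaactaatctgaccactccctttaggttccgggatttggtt
Ctss: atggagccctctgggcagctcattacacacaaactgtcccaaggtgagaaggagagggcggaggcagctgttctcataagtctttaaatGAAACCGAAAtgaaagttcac

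The X core and the Y box began 31 bases apart in H2-Aa, 30 in H2-Eb1 and 31 in H2-DMb1. The X core began 81, 91 and 94 bases before the start of these genes, in that order. Over the 250 upstream bases of all 32851 promoter entries, searched on both strands, 37.3% held the X core and 7.23% held the Y box, and the boxes do not overlap each other. An X core followed by a Y box with 20 to 40 bases between their starts stood in 52 promoters, or 0.158%, a spacing chosen after these sequences were seen. The 52 included another class II gene, H2-Eb2, and did not include the entries of H2-DMa, Ctss or Ifi30. Only these exact letters were searched, which cannot show that boxes with other letters are absent. The H2-DMa entries have starts at 34122832 and 34125518, inside the gene, and bases before its outer start at 34119693 were not searched. The interferon element core stood in 2.98% of promoters, and in Ctss it began 21 bases before the start. H2-Aa, H2-Ab1, H2-Eb1, H2-DMa and H2-DMb1 lie together on chromosome 17 between 34119693 and 34316674. Cd74 lies on chromosome 18, Ciita on chromosome 16 (10480014 to 10531064), Ctss on chromosome 3 (95526786 to 95556405) and Ifi30 on chromosome 8 (70762773 to 70766663).

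Levels are given in TPM, a share of all transcripts that is scaled for transcript length. Differences were tested with limma on log2(TPM + 1) over all genes with enough signal, and a gene was called when its p, adjusted by the method of Benjamini and Hochberg, was under 0.05. The files carry no read depth, so errors come from the spread between mice alone. WT saline replicates 2 and 3 were more alike than any of the 17 other replicate pairs (median absolute log2 ratio 0.0664, against 0.115 to 0.402). The labels give only replicate numbers, and the methods of the study call the samples of a group independent biological replicates. The files do not show whether both came from 1 mouse or 1 library. Results against WT saline were therefore also computed with this pair averaged and counted as 1 mouse. Replicate 3 of each ConA group stood apart, with pairwise ratios up to 0.402 in WT ConA and 0.345 in KO ConA. Ythdf1 itself had 12.03 to 13.9 TPM in WT saline, while KO saline had 18.4 to 20.8 TPM. After ConA the WT mice had 18.7 to 25.6 TPM and the KO mice 15.5 to 26.2 TPM. It was thus not lower in the libraries labelled knockout. The deleted part of the gene is not given in the sources used here, so a whole-gene TPM does not check that label, and every genotype comparison below rests on the labels.

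The class II chains fell in WT liver after ConA. H2-Aa stood at 32.8, 29.9 and 33.8 TPM in WT saline and at 14.1, 8.02, 5.79 and 8.33 TPM in WT ConA. H2-Ab1 stood at 28.8, 26.3 and 25.2 TPM in WT saline and at 14.04, 8.72, 6.87 and 10.2 TPM in WT ConA. H2-Eb1 stood at 16.8, 15.8 and 15.7 TPM in WT saline and at 7.44, 3.82, 2.73 and 4.59 TPM in WT ConA. For all 3 chains the groups did not overlap, WT ConA replicate 1 was the highest treated mouse and replicate 3 the lowest. On the log2(TPM + 1) scale H2-Aa fell by 1.78 (SE 0.24, a 3.44-fold change, adjusted p = 0.000248 by limma). H2-Ab1 fell by 1.38 (SE 0.21, 2.60-fold, adjusted p = 0.000485 by limma) and H2-Eb1 by 1.66 (SE 0.25, 3.17-fold, adjusted p = 0.000436 by limma).

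The invariant chain moved the same way by a smaller amount. Cd74 was the most abundant member per length, at 66.3, 50.2 and 52.1 TPM in WT saline and at 46.7, 29.1, 21.9 and 22.7 TPM in WT ConA. The highest treated mouse, replicate 1, came close to the lowest control without overlap. Cd74 fell by 0.93 on the log2 scale (SE 0.25, adjusted p = 0.0113 by limma). Without WT saline replicate 1 the fall was 0.81 and the call was lost (adjusted p = 0.0515 by limma). Of the 8 members tested, 4 were called in this comparison, and all 4 were lower. Of all 10768 genes tested 53% were called, 31% as lower, and in 34.7% WT ConA lay below WT saline without overlap. The median change of the 8 members was −0.71, against −0.07 over all genes tested. With the alike WT saline pair averaged, these 4 were called again, with H2-Aa at −1.79 (adjusted p = 0.00177), H2-Ab1 at −1.41 (0.00306), H2-Eb1 at −1.68 (0.00285) and Cd74 at −0.995 (0.0285), all by limma.

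**Figure D1:**
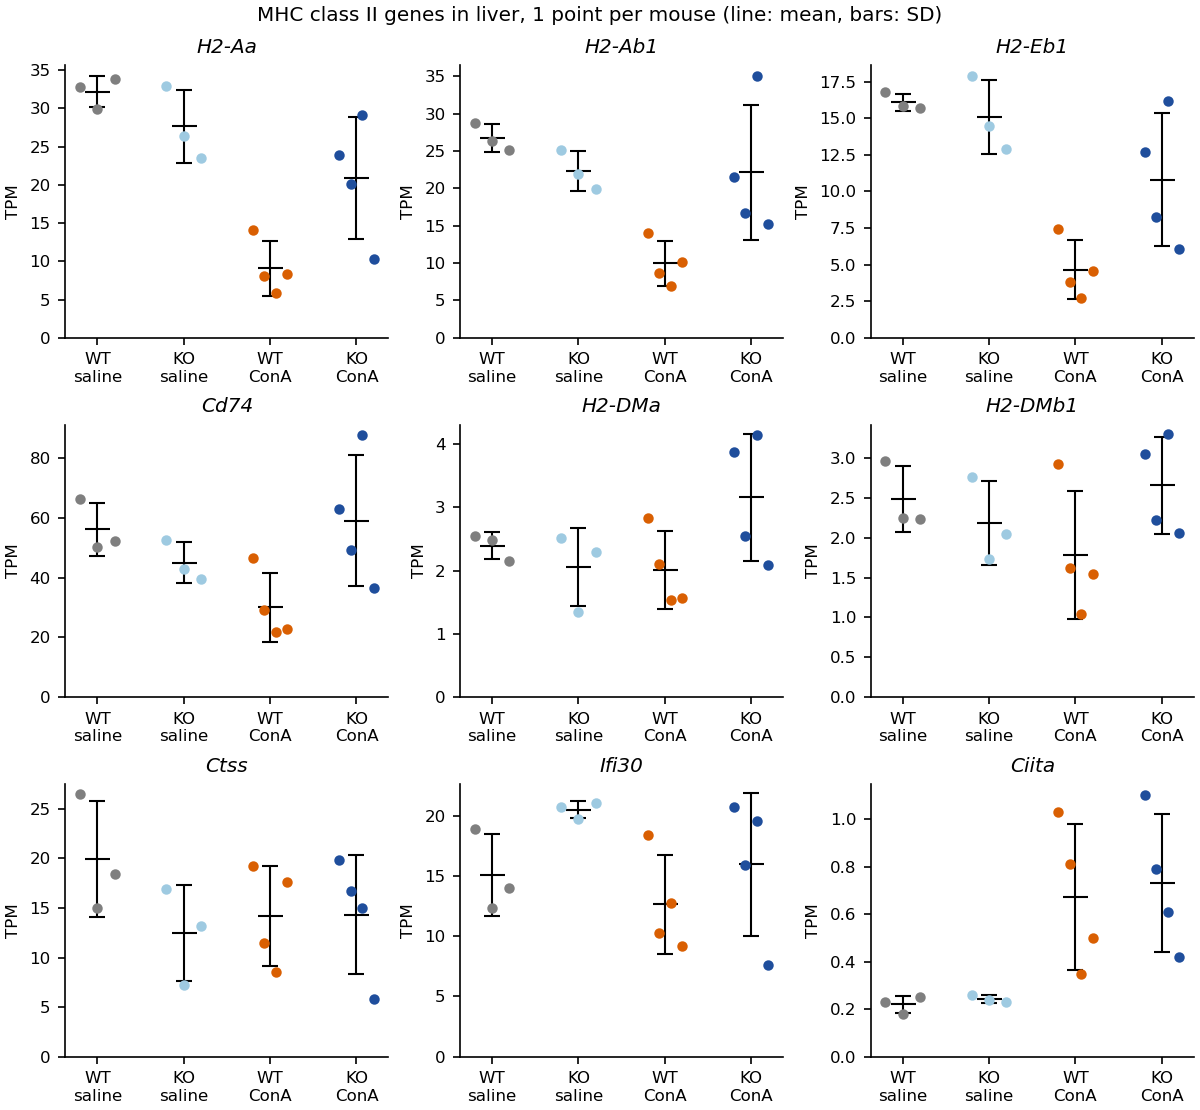
TPM of the 9 MHC class II genes on linear axes from 0, with 1 point per mouse, the group mean as a line and the SD as bars (WT saline n = 3, KO saline n = 3, WT ConA n = 4, KO ConA n = 4). H2-Aa in WT ConA lies between 5.79 and 14.1 TPM, below every saline mouse, while KO ConA spreads from 10.3 to 29.1 TPM, and Ciita is higher in every ConA mouse than in any saline mouse.

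In KO liver the chains were not called after ConA. H2-Aa stood at 32.9, 26.4 and 23.5 TPM in KO saline and at 23.9, 20.1, 29.1 and 10.3 TPM in KO ConA. H2-Ab1 stood at 25.2, 21.9 and 19.9 TPM in KO saline and at 21.6, 16.8, 35.1 and 15.2 TPM in KO ConA. H2-Eb1 stood at 17.9, 14.5 and 12.9 TPM in KO saline and at 12.7, 8.22, 16.2 and 6.05 TPM in KO ConA. The groups overlapped for each chain, with KO ConA replicate 3 at the top and replicate 4 at the bottom of the treated mice. The differences were −0.46 for H2-Aa (95% interval −1.09 to 0.16, adjusted p = 0.172), −0.08 for H2-Ab1 (−0.62 to 0.46, adjusted p = 0.792) and −0.52 for H2-Eb1 (−1.12 to 0.09, adjusted p = 0.117), all by limma.

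Cd74 stood at 52.6, 42.9 and 39.5 TPM in KO saline and at 63.0, 49.1, 87.7 and 36.5 TPM in KO ConA. Treated mice lay above and below the controls, with a difference of 0.32 (interval −0.22 to 0.87, adjusted p = 0.269 by limma). None of the 8 members tested was called in KO ConA against KO saline, and none had an unadjusted p under 0.05. Of all 10988 genes tested 64.6% were called, and 7488 had an unadjusted p under 0.05. The median of the 8 was 0.03, against 0.07 over all genes tested. The count depended on single KO ConA mice: without replicate 3, H2-Eb1 was called at −0.73 (adjusted p = 0.0202), and without replicate 4, Cd74 was called at 0.53 (adjusted p = 0.0485) and H2-DMa at 0.57 (adjusted p = 0.0462), by limma. Of all genes tested, 71.8% were called without replicate 3 and 60.4% without replicate 4.

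After ConA the chains and Cd74 were higher on average in KO than in WT liver, without passing the test over all genes. H2-Ab1 was the member whose groups did not overlap, with the lowest KO mouse at 15.2 TPM and the highest WT mouse at 14.04 TPM. For H2-Aa, H2-Eb1 and Cd74, KO ConA replicate 4 lay within the WT range, and the other 3 KO mice lay above every WT mouse. The mean difference was 1.05 for H2-Ab1 (SE 0.27, adjusted p = 0.0973), 1.09 for H2-Aa (SE 0.31, adjusted p = 0.122), 1.04 for H2-Eb1 (SE 0.31, adjusted p = 0.135) and 0.94 for Cd74 (SE 0.29, adjusted p = 0.144), all by limma. Of the 8 members 0 were called, where 0.428% of all 10519 genes tested were called and 6.37% had every KO mouse above every WT mouse. An unadjusted p under 0.05 was found for 4 of the 8 members and for 1753 of the 10519 genes. The median of the 8 was 0.70, against 0.05 over all genes. When the spread was estimated from all 14 libraries, the differences were unaltered and these 4 members were called, with adjusted p of 0.0184 for H2-Ab1, 0.0298 for H2-Aa, 0.0345 for H2-Eb1 and 0.0434 for Cd74 by limma. In that fit 5.50% of all genes tested were called.

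The difference between the responses was tested as the interaction of genotype and ConA, which uses all 14 libraries and shares them with the comparisons above. H2-Ab1 was called, with a response 1.30 higher in KO than in WT liver (SE 0.35, interval 0.56 to 2.05, adjusted p = 0.0471 by limma). The values were 1.32 for H2-Aa (SE 0.41, adjusted p = 0.0737), 1.26 for Cd74 (SE 0.39, adjusted p = 0.0712) and 1.14 for H2-Eb1 (SE 0.40, adjusted p = 0.105), by limma. Thus 1 of 8 members was called, and 4 had an unadjusted p under 0.05, as had 2862 of all 11327 genes tested. Over all 11327 genes tested 4.78% were called, 2.64% as higher, and the median was 0.14, against 0.89 for the members. The call of H2-Ab1 was marginal: it was lost with the alike WT saline pair averaged (1.33, adjusted p = 0.118), with the medians of the libraries equalized (1.17, adjusted p = 0.0817), and without any of the 6 saline mice (adjusted p from 0.0785 to 0.118), WT ConA replicates 2 (0.0606) or 3 (0.0626), or KO ConA replicates 1 (0.0702), 2 (0.0601) or 4 (0.0573), by limma. That equalizing moved the median interaction of all genes by −0.123. Without WT ConA replicate 1, H2-Ab1 (1.47, adjusted p = 0.0298), Cd74 (1.48, 0.0311), H2-Aa (1.54, 0.0384) and H2-Eb1 (1.36, 0.0483) were all called, and without KO ConA replicate 4, H2-Aa alone was (1.61, 0.0424), by limma. Of all genes tested, 5.77% and 0.725% were called in these 2 fits, in that order.

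**Figure D2:**
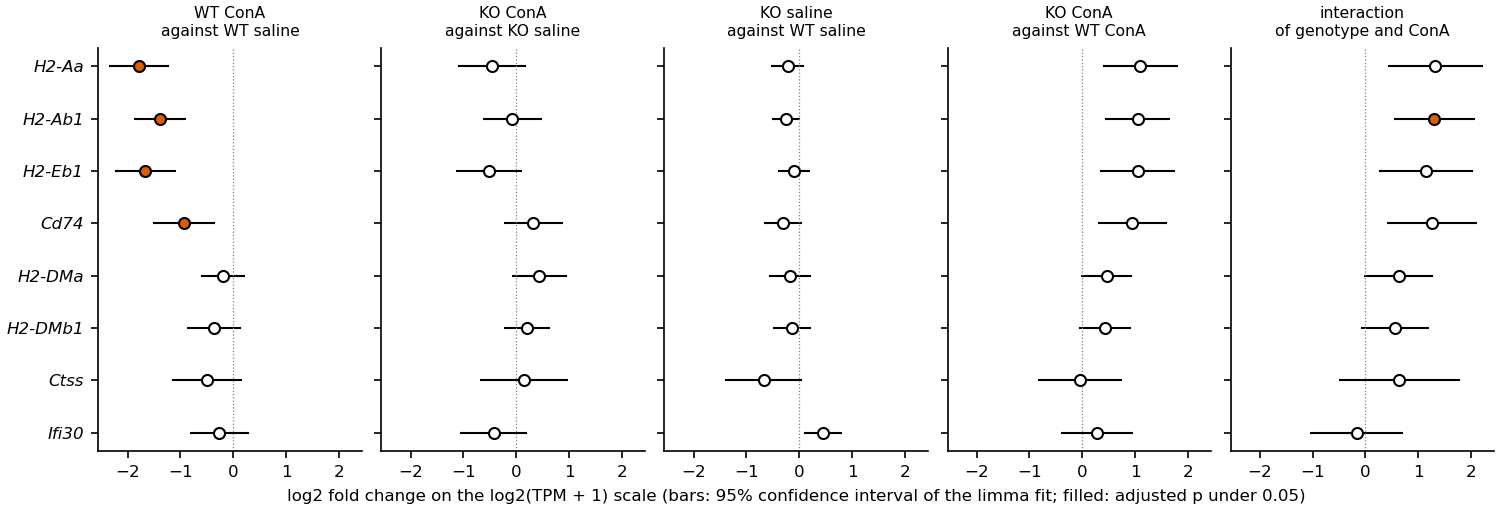
Log2 difference of the 8 tested MHC class II genes in 5 comparisons, on the log2(TPM + 1) scale, with the 95% confidence interval of the limma fit as bars and filled points for an adjusted p under 0.05. Filled points stand at H2-Aa (−1.78), H2-Ab1 (−1.38), H2-Eb1 (−1.66) and Cd74 (−0.93) in WT ConA against WT saline, and at H2-Ab1 (1.30) in the interaction.

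The peptide editor genes were not called in any of these comparisons, and their differences had the same sign as those of the chains except in KO ConA against KO saline. H2-DMa and H2-DMb1 code for the alpha and the beta chain of the H2-DM heterodimer. H2-DMa stood at 2.55, 2.48 and 2.15 TPM in WT saline, at 2.83, 2.11, 1.53 and 1.56 TPM in WT ConA, at 2.51, 1.35 and 2.29 TPM in KO saline, and at 3.87, 2.54, 4.14 and 2.08 TPM in KO ConA. All neighbouring groups overlapped, and the highest values were those of KO ConA replicates 1 and 3. The change after ConA was −0.19 in WT (interval −0.59 to 0.20, adjusted p = 0.378) and 0.44 in KO liver (−0.06 to 0.93, adjusted p = 0.109), by limma. KO ConA differed from WT ConA by 0.46 (adjusted p = 0.317) and the interaction was 0.63 (adjusted p = 0.198), by limma.

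H2-DMb1 stood at 2.96, 2.25 and 2.24 TPM in WT saline, at 2.93, 1.62, 1.04 and 1.54 TPM in WT ConA, at 2.76, 1.73 and 2.05 TPM in KO saline, and at 3.05, 2.22, 3.30 and 2.06 TPM in KO ConA. The groups overlapped throughout. The change was −0.36 in WT (adjusted p = 0.192) and 0.20 in KO liver (adjusted p = 0.360) by limma. KO ConA differed from WT ConA by 0.42 (adjusted p = 0.358) and the interaction was 0.56 (adjusted p = 0.241), by limma. Without WT ConA replicate 1, the highest treated WT mouse, the change of H2-DMb1 in WT liver was −0.54 and was called (adjusted p = 0.0258 by limma). In that fit 48.8% of all genes tested were called. H2-DMb1 is uncertain in another way, since 27.2% of the 50-base stretches of its transcript also occur in H2-DMb2, which was listed at 1.01 TPM at most.

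The transcripts of Ctss and Ifi30, whose proteins prepare the groove and the antigen, showed no called difference. Ctss stood at 26.4, 15.0 and 18.5 TPM in WT saline and at 19.2, 11.5, 8.58 and 17.6 TPM in WT ConA. It stood at 16.9, 7.27 and 13.2 TPM in KO saline and at 19.8, 16.7, 15.0 and 5.80 TPM in KO ConA. The 4 groups overlapped, and Ctss differed by −0.49 after ConA in WT (adjusted p = 0.178), by 0.15 in KO (adjusted p = 0.743) and by −0.04 between KO ConA and WT ConA (interval −0.81 to 0.73, adjusted p = 0.969), by limma. The interval is wide, so Ctss is not shown to be alike in the genotypes.

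Ifi30 stood at 18.9, 12.4 and 13.97 TPM in WT saline and at 20.7, 19.8 and 21.1 TPM in KO saline. It stood at 18.4, 10.3, 12.7 and 9.15 TPM in WT ConA and at 20.7, 15.9, 19.6 and 7.59 TPM in KO ConA. Among saline mice every KO mouse lay above every WT mouse, as in 13% of all genes tested there, with a difference of 0.44 (SE 0.15, adjusted p = 0.0709 by limma). It was called without WT saline replicate 1 (0.60, adjusted p = 0.0143) and after equalizing the library medians (0.52, adjusted p = 0.0469), by limma. Of all genes tested, 21.0% were called without that mouse and 15.5% after the equalizing. The change of Ifi30 after ConA was −0.26 in WT (adjusted p = 0.383) and −0.43 in KO liver (adjusted p = 0.192) by limma.

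Without ConA the genotypes did not differ by a called amount in any of the 8 members, while 19.2% of all 10459 genes tested were called, a count that dropped from 2009 to 49 genes with the alike WT saline pair averaged. Besides Ifi30, the members stood between −0.68 for Ctss (adjusted p = 0.140) and −0.10 for H2-Eb1 (adjusted p = 0.567), by limma. H2-Ab1 at −0.26 (adjusted p = 0.124 by limma) and Ifi30 were the 2 with an unadjusted p under 0.05, a limit that 4056 of all 10459 genes passed. The median of the 8 was −0.20, against −0.10 over all genes tested.

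Ciita was the member that was higher in every ConA mouse. It stood at 0.23, 0.18 and 0.25 TPM in WT saline and at 0.26, 0.24 and 0.23 TPM in KO saline. It stood at 1.03, 0.81, 0.35 and 0.50 TPM in WT ConA and at 1.10, 0.79, 0.61 and 0.42 TPM in KO ConA. The lowest treated mouse (0.35) lay above the highest control (0.26), and the mean was 3.06 times the control mean in WT and 3.0 times in KO liver. How many other genes rose without overlap is not given here. Too few libraries reached 1 TPM for Ciita to enter the tests above. Exact two-sided permutation tests of its TPM gave p = 0.0571 in each genotype, which is the smallest p that 4 against 3 mice can give. When genes of every level were tested, Ciita was called in WT (0.44, adjusted p = 0.0364) and in KO liver (0.46, adjusted p = 0.0149), and the interaction was 0.02 (adjusted p = 0.961), by limma. Calls were common in these fits, at 37.2% of all genes in WT and 46.8% in KO liver. KO and WT mice overlapped after ConA (exact permutation p = 0.800) and after saline (exact permutation p = 0.50).

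Ratios between members of the same library do not depend on how that library was scaled. The Cd74 to H2-Aa ratio was 2.02, 1.68 and 1.54 in WT saline, 1.60, 1.63 and 1.68 in KO saline, 3.31, 3.63, 3.78 and 2.73 in WT ConA, and 2.64, 2.44, 3.01 and 3.54 in KO ConA. Every ConA mouse of either genotype lay above every saline mouse in this ratio. The group means were 1.75 ± 0.25 (SD, n = 3), 1.63 ± 0.04 (n = 3), 3.36 ± 0.47 (n = 4) and 2.91 ± 0.48 (n = 4), in that order. The Cd74 to H2-Ab1 ratio was 1.91 to 2.30 in saline mice, 3.32, 3.34, 3.19 and 2.23 in WT ConA, and 2.92, 2.93, 2.50 and 2.40 in KO ConA, so that WT ConA replicate 4 lay within the saline range. The H2-DMb1 to H2-Aa ratio was 0.0656 to 0.0903 in saline mice, and after ConA it was 0.180 to 0.208 in WT and 0.110 to 0.1998 in KO mice. The H2-DMa to H2-Aa ratio was 0.0512 to 0.0973, 0.187 to 0.264 and 0.126 to 0.202 in the same order. For both DM genes the ConA mice of both genotypes again lay above all saline mice. The beta chains also shifted against each other, since the H2-Eb1 to H2-Ab1 ratio was 0.582 to 0.708 in saline mice, and after ConA it was 0.397 to 0.530 in WT and 0.397 to 0.590 in KO mice, where KO ConA replicate 1 overlapped the saline range.

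**Figure D3:**
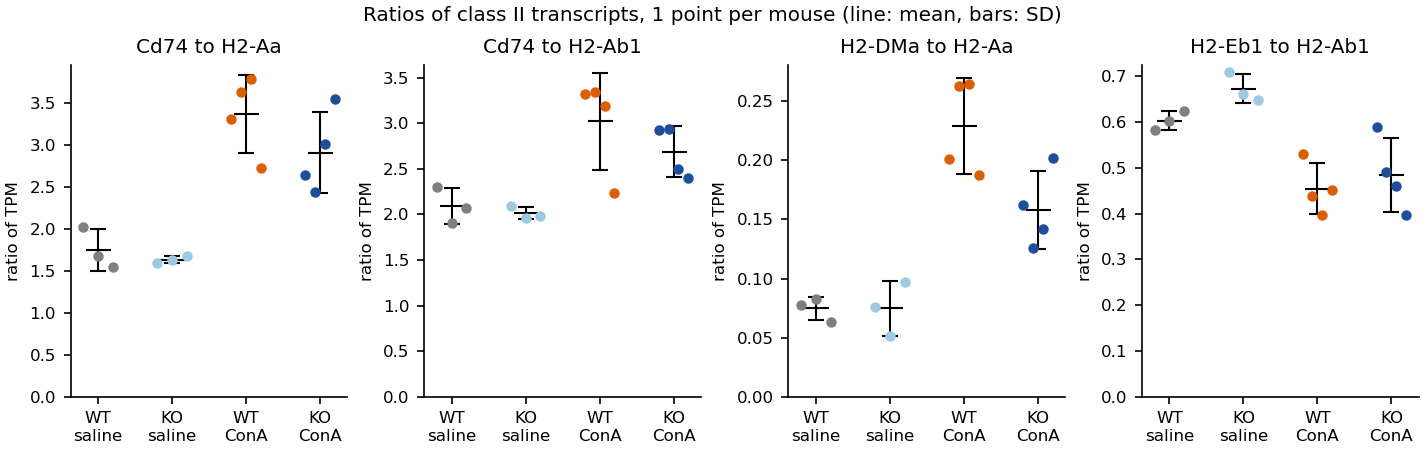
Ratios of TPM between MHC class II genes within each library, on linear axes from 0, with 1 point per mouse, the mean as a line and the SD as bars (n = 3 per saline group, n = 4 per ConA group). The Cd74 to H2-Aa ratio is 1.54 to 2.02 in saline mice and 2.44 to 3.78 in ConA mice, and the H2-Eb1 to H2-Ab1 ratio is lower in most ConA mice.

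Individual mice kept a similar place across the members. WT ConA replicate 1 was the highest of its group in all 9 genes, and KO ConA replicate 4 was the lowest of its group in all 9. KO ConA replicate 3 was the highest of its group in 6 of 9, namely the chains, Cd74 and the DM genes. The summed TPM of H2-Aa, H2-Ab1, H2-Eb1 and Cd74 was 145, 122 and 127 in WT saline, 129, 106 and 95.9 in KO saline, 82.3, 49.7, 37.3 and 45.8 in WT ConA, and 121, 94.2, 168 and 68.1 in KO ConA. The treated KO mice thus spanned a wider range than any other group, from below the lowest saline mouse to above the highest.

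Genes that control class II transcription rose in part. Of 7 RFX, NF-Y and CREB genes, 3 rose and 0 fell in WT liver, with a median of 0.29, where 22% of all genes tested rose: Nfya rose by 1.16 (adjusted p = 0.000112), Rfxank by 0.78 (adjusted p = 0.00733) and Rfxap by 0.62 (adjusted p = 0.00312), by limma. In KO liver 5 of 7 rose and 0 fell, where 33.9% of all genes rose and 30.7% fell, among them Nfya (0.75, adjusted p = 0.00113 by limma). Of 8 genes from interferon gamma to Ciita, 4 rose in WT liver (median 0.61) and 7 rose in KO liver (median 1.63). Ifng, the cytokine itself, stood at 0 to 0.14 TPM in the 6 saline mice, at 3.86, 2.46, 1.63 and 1.01 TPM in WT ConA and at 6.05, 6.28, 12.1 and 5.02 TPM in KO ConA. Every KO ConA mouse lay above every WT ConA mouse in Ifng, and the difference of 1.38 did not pass the test over all genes (adjusted p = 0.0674 by limma).

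Irf1, an interferon-induced transcription factor, had 22.7 to 27.9 TPM in WT saline, while KO saline had 15.3 to 17.95 TPM. After ConA the WT mice had 213 to 352 TPM and the KO mice 366 to 425 TPM. It rose by 3.42 in WT (adjusted p = 2.1e-06) and by 4.49 in KO liver (adjusted p = 4.36e-10), and the interaction of 1.06 was called (adjusted p = 0.0307), by limma. Ifngr2, a chain of the interferon gamma receptor, rose by 0.74 and 1.88 in WT and KO liver, with a called interaction of 1.14 (adjusted p = 0.0185 by limma). The called interactions of Irf1 and Ifngr2 were lost with the alike WT saline pair averaged, and without ConA both genes were lower in KO than in WT liver (−0.58 and −0.81, calls lost in the same way). After ConA none of the 8 genes was called between the genotypes, where 0.428% of all 10519 genes tested were called. An unadjusted p under 0.05 was found for 5 of the 8 and for 1753 of all 10519 genes.

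Most of the listed MHC class I genes, which present peptides from inside the cell, rose in both genotypes. Of 9 genes of that side, 7 rose and 1 fell in each genotype, with medians of 1.84 in WT and 2.06 in KO liver. Of all genes tested, 22% rose and 31% fell in WT, and 33.9% rose and 30.7% fell in KO liver. Tap1, a subunit of the peptide transporter, stood at 9.78 to 10.3 TPM in WT saline and at 87.6 to 138 TPM in WT ConA, and rose by 3.29 (adjusted p = 1.22e-06 by limma). The proteasome gene Psmb8 rose by 2.02 (adjusted p = 2.45e-06) and Tapbp, which codes for tapasin, by 1.84 (adjusted p = 4.17e-06), by limma. H2-D1 differed between the genotypes without ConA by −0.35, a call lost with the alike pair averaged. The gene that fell was B2m, the light chain of class I molecules (−0.49 in WT and −0.94 in KO liver). H2-K1 was called in neither genotype (0.11 in WT, adjusted p = 0.519, and 0.23 in KO liver, adjusted p = 0.0887, by limma). Both are named after their values were seen. The summed TPM of the 9 had means of 7836.5 in WT saline, 8387 in WT ConA, 8056 in KO saline and 7481 in KO ConA. Between KO ConA and WT ConA the median of the 9 was −0.06 and none was called, where 0.428% of all genes tested were called.

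Among 9 genes of endolysosomal proteases and their inhibitors, 2 rose and 4 fell in WT liver (median −0.49), and 2 rose and 2 fell in KO liver (median −0.05). The shares of all genes were 22% higher and 31% lower in WT and 33.9% higher and 30.7% lower in KO liver, so these counts do not set the list apart. Lgmn, the asparaginyl endopeptidase, had 15.8 to 24.3 TPM in WT saline, while KO saline had 10.6 to 18.4 TPM. After ConA the WT mice had 26.0 to 49.7 TPM and the KO mice 70.4 to 86.2 TPM. Every KO ConA mouse lay above every WT ConA mouse, with a difference of 0.94 that was not called (adjusted p = 0.0651) and an interaction of 1.33 that was (adjusted p = 0.0342), by limma. Cstb, an inhibitor of cathepsins, had an interaction of 0.84 (adjusted p = 0.0258) and Ctsh, cathepsin H, one of 0.84 (adjusted p = 0.0444), by limma. Ctsh fell in WT liver by 0.80 (adjusted p = 0.00248 by limma) and Ctsb by 0.68 (adjusted p = 0.00151 by limma). Without ConA, Ctsh and Ctsl were lower in KO than in WT liver (−0.75 and −0.71). These interaction and saline calls were lost with the alike WT saline pair averaged.

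Of 5 genes of surface turnover and costimulation, 2 could be tested in WT and 3 in KO liver. Marchf8, a ubiquitin ligase that removes class II molecules from the surface, fell by 1.03 in WT liver (adjusted p = 0.00533) and stood at −0.50 in KO liver (adjusted p = 0.0711), by limma. Cd40, a receptor on antigen-presenting cells, rose by 1.36 in WT (adjusted p = 0.000648) and by 2.12 in KO liver (adjusted p = 6.25e-05), by limma. Cd86 was the other gene that rose in KO liver. Of the other class II chain genes, H2-Oa, H2-Ob and H2-Eb2 stayed under 1 TPM in every library, and none of the 4 listed was tested.

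**Figure D4:**
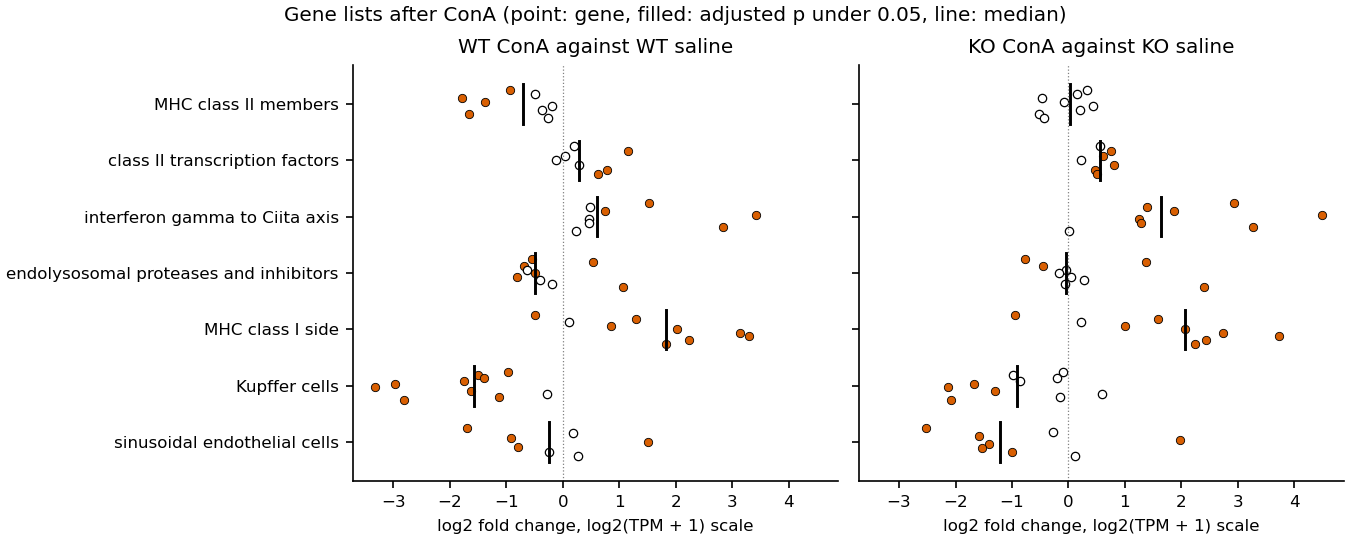
Log2 change after ConA in WT liver (left) and KO liver (right) on the log2(TPM + 1) scale for the MHC class II genes, the pathway lists and 2 cell type lists, with 1 point per gene, filled for an adjusted p under 0.05, and a line at the median of the list. The class II median is −0.71 in WT and 0.03 in KO liver, and the class I side has medians of 1.84 and 2.06.

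Kupffer cell markers, from cells that carry class II, fell in WT liver. In RNA of whole liver, fewer cells of a type and less RNA per cell cannot be told apart. Of 10 Kupffer cell markers, 9 fell in WT liver (median −1.57), where 31% of all genes fell, among them Vsig4 (−2.81, adjusted p = 3.61e-05), Clec4f (−3.32, adjusted p = 0.000365) and Csf1r (−1.63, adjusted p = 0.000278), by limma. In KO liver 4 of 10 fell (median −0.92), where 30.7% of all genes fell. None of the 7 tested was called between KO ConA and WT ConA (median 0.36), where 0.428% of all genes tested were called. No Kupffer marker was listed at 0 in any library. Their summed TPM was 230, 137 and 144 in WT saline, 147, 65.1 and 124 in KO saline, 93.8, 29.3, 25.4 and 26.1 in WT ConA, and 63.3, 54.5, 84.7 and 19.8 in KO ConA. WT ConA replicate 1 and KO ConA replicate 3 were the highest of their groups and KO ConA replicate 4 the lowest in both sums. H2-Ab1 per summed Kupffer marker TPM was 0.125 to 0.336 in saline mice, and after ConA it was 0.150 to 0.389 in WT and 0.307 to 0.768 in KO mice. The part of Kupffer cell content in the class II results was not tested.

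**Figure D5:**
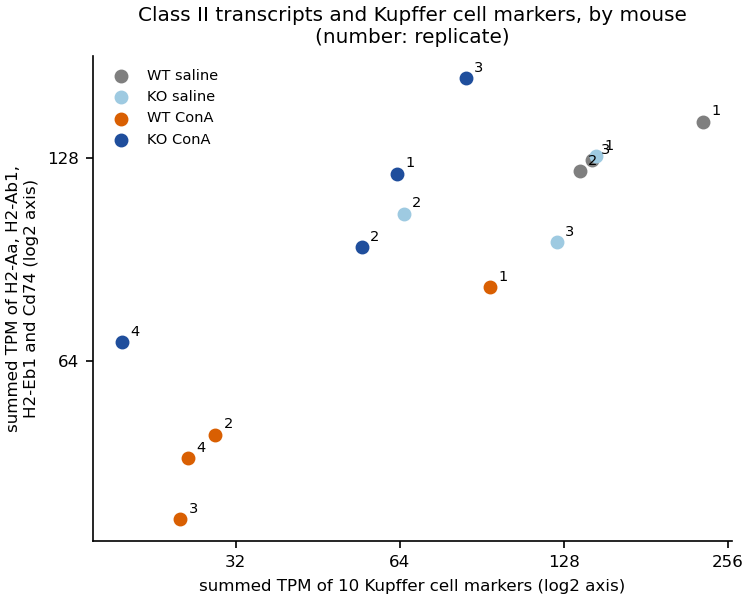
Summed TPM of H2-Aa, H2-Ab1, H2-Eb1 and Cd74 against the summed TPM of 10 Kupffer cell markers, both on log2 axes, with 1 point per mouse and its replicate number. WT ConA replicates 2, 3 and 4 lie at the lower left (25.4 to 29.3 on the marker axis), and KO ConA replicates 1, 2 and 3 lie above them at 54.5 to 84.7.

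Markers of dendritic cells and B cells were mostly under 1 TPM, and those of sinusoidal endothelium were not. Of 8 dendritic cell markers, 6 stood under 1 TPM in every library, and the sum of the list was 3.70 to 4.62 in saline mice, and after ConA 2.72 to 6.79 in WT and 5.31 to 10.3 in KO mice. Batf3, a transcription factor of these cells, was 1 of the 2 that could be tested after ConA and rose (0.97 in WT, adjusted p = 0.0222 by limma, and 1.81 in KO liver, adjusted p = 0.000139 by limma), from a mean of 0.887 to 2.93 TPM in WT and from 0.757 to 5.34 TPM in KO liver. The other dendritic cell markers had lower means after ConA, except Cd209a in WT (0 and 0.0375 TPM) and Itgax in KO liver (0.230 and 0.2775 TPM). Clec9a had a mean of 0.640 TPM in WT saline and 0.0825 TPM in WT ConA, and Xcr1 had 0.390 and 0.0700 TPM. In KO liver the means were 0.810 and 0.1825 TPM for Clec9a and 0.233 and 0.1075 TPM for Xcr1. None of these 4 genes was tested. Zbtb46 had 1.49 and 0.938 TPM in WT saline and WT ConA and was not called (−0.37, adjusted p = 0.0564 by limma). In KO liver it stood at −0.23 (adjusted p = 0.219 by limma). Clec9a, Xcr1, Zbtb46, Cd209a and Itgax are named after their values were seen. Of 8 B cell markers, 6 stood under 1 TPM in every library, and their sum was 0.79 to 4.82 in saline mice, and after ConA 1.65 to 5.33 in WT and 0.96 to 2.66 in KO mice. Of 8 markers of sinusoidal endothelium, 7 were tested in WT liver, and 1 rose and 3 fell. All 8 were tested in KO liver, and 1 rose and 5 fell. Of all genes tested, 22% rose and 31% fell in WT, and 33.9% rose and 30.7% fell in KO liver. The sum of the 8 endothelial markers was 23.4 to 32.1 in WT saline, 17.0 to 37.8 in WT ConA, 37.9 to 63.9 in KO saline and 19.7 to 39.0 in KO ConA. The sum of the 6 hepatocyte markers, albumin (Alb) among them, was the highest of the cell type lists in every library, as the label of liver tissue has it.

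The genes whose levels most resembled the mean log2 level of H2-Aa, H2-Ab1, H2-Eb1 and Cd74 over the 14 libraries, among 7218 genes with a mean of 5 TPM or more, were Stom (Pearson r = 0.886), C1qb (0.864), C1qc (0.836), Txnip (0.835) and Efl1 (0.832). Stom had 33.4 to 35.1 TPM in WT saline, while WT ConA had 8.50 to 19.2 TPM and KO ConA had 24.7 to 26.9 TPM. When each library was taken relative to its group mean, the closest were Akap12 (0.925), Fcgr4 (0.916), Pecam1 (0.910), Ccl5 (0.909) and Tm4sf1 (0.908). For Ciita they were Pml (0.945), Tfip11 (0.942), Mars1 (0.928), Marcksl1 (0.926) and Trim21 (0.923) by level, and Sh3bp5 (0.943), Mars1 (0.924), Tfip11 (0.913), Hnf4a (0.911) and Cxcl12 (0.897) relative to the group mean. These correlations are a description, since the 14 libraries fall into 4 groups and share their scaling.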

How the data were processed

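Liver RNA of 14 mice was sequenced on a BGISEQ-500 (50 bases, single-end). The deposited TPM values sum to 1000000 per library over 17656 genes. The submitters' processing notes name Bowtie2, RSEM 1.3.1 and GRCm38.p6, whereas the methods of the study name STAR, HTSeq and edgeR, and which of them made the TPM was not settled. TPM keeps no depth, so no precision from counting could be given.

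Groups and replicate numbers came from the labels. limma 3.58.1 (lmFit, eBayes with trend, R 4.3.3) was run on log2(TPM + 1) for genes that reached 1 TPM in no fewer libraries than the size of the smaller group, with the libraries of the groups compared, or all 14 for the interaction. The call threshold was a Benjamini-Hochberg adjusted p of 0.05 over all genes tested, and fold changes on this scale understate changes of low genes. The script was tested on simulated data. Of the 9 members, 8 were at 1 TPM or more in all 14 libraries, and Ciita was tested by exact permutation (SciPy 1.17.1). Alternatives were a pseudocount of 0.1, a minimum of 5 TPM, no filter, median-ratio rescaling, robust eBayes, a replicate block, all 14 libraries, averaging of WT saline replicates 2 and 3 and leaving out each library. Leaving out both ConA replicates 3 was chosen after the data were seen. Members, gene lists and tests were chosen with earlier results of these data known. Pathway genes were named when called between genotypes or in the interaction, or when among the 3 with the smallest p of their list in WT ConA against WT saline. Of these, 1 gene is not reported here by name. Like-pattern genes were the 5 with the highest Pearson r. Promoters were RefSeq entries on GRCm38.p6, and shared 50-base stretches were counted in GENCODE transcripts.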

Additional observations from a re-analysis of the deposited data

Results flagged for a closer look

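In a group of 4 mice, a value was noted when its gap to the nearest other mouse was large for the range of the group (Dixon's 95% limit), which chance does in about 1 in 20 groups. This held for 3 values, all in WT ConA, out of 36 such tests over the members, their ratios and the Kupffer sum in the ConA groups. The Cd74 to H2-Ab1 ratio of replicate 4 was 2.23, against 3.19 to 3.34 in the other mice. The Ctss to Cd74 ratio of replicate 4 was 0.776, against 0.392 to 0.411 in the others. The summed Kupffer marker TPM of replicate 1 was 93.8, against 25.4 to 29.3 in the others.

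The response to ConA differed between the genotypes by the interaction test in 7 of the 83 members and list genes tested (8.43%), where 4.78% of all genes tested were called. Its value on the log2 scale was 1.30 for H2-Ab1, 1.14 for Ifngr2, 1.06 for Irf1, 0.84 for Ctsh, 1.33 for Lgmn, 0.84 for Cstb and −0.68 for Ptprb, an endothelial phosphatase gene. In all 7 the call was lost when WT saline replicates 2 and 3 were averaged, with little change in the values (1.33, 1.12, 1.10, 0.76, 1.42, 0.81 and −0.65 in the same order). The number of genes called in the interaction fell from 541 to 28 under that averaging.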

How the results depend on the processing

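The fall of H2-Aa, H2-Ab1 and H2-Eb1 in WT ConA against WT saline was called under every alternative run, with changes from −1.997 to −1.61, −1.55 to −1.23 and −1.88 to −1.48. The number of members called there ranged from 3 to 5 when libraries were left out in turn. In KO ConA against WT ConA 0 members were called whichever library was left out, and 4 with all 14 libraries in the fit. In KO saline against WT saline 1 was called after median-ratio rescaling, and 0 to 1 with libraries left out. In KO ConA against KO saline 1 was called with no filter, and 0 to 2 with libraries left out. In the interaction 0 were called with a pseudocount of 0.1, with no filter, with rescaling or with the alike WT saline pair averaged, and 0 to 4 with libraries left out. With libraries left out, 41.8% to 65.9% of all genes were called in WT ConA against WT saline. The shares were 56.3% to 71.8% in KO ConA against KO saline, 0.422% to 25.9% in KO saline against WT saline and 0.191% to 6.81% in the interaction. With both ConA replicates 3 left out the counts were 0 between the ConA groups and 1 in the interaction, where 0.301% and 14.1% of all genes were called.

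Differences near 0 turned sign in 12 cases, none of them called. With single libraries left out, Ctss ranged from −0.242 (WT ConA replicate 3) to 0.311 (KO ConA replicate 4) in KO ConA against WT ConA, and from −0.168 (KO saline replicate 2) to 0.498 (KO ConA replicate 4) in KO ConA against KO saline. H2-Ab1 in the latter ranged from −0.316 (KO ConA replicate 3) to 0.0687 (KO ConA replicate 4), H2-DMa in KO saline against WT saline from −0.285 (KO saline replicate 1) to 0.0040 (KO saline replicate 2), and the interaction of Ifi30 from −0.332 (WT saline replicate 1) to 0.132 (KO ConA replicate 4). The cause was not tested.

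With the replicate number as a block, 2 members were called in KO saline against WT saline (Cd74 and Ctss) and 2 in KO ConA against KO saline (Cd74 and H2-DMa). There were 5 in WT ConA against WT saline with Ctss added, and 1 in the interaction, Cd74 (adjusted p = 0.0477 by limma) in place of H2-Ab1 (0.0558). The shares of all genes called with the block were 23.2%, 59.6%, 47.0% and 3.16% in the same order. The difference of H2-Ab1 in KO ConA against KO saline with the block was 0.0687. The deviations of same-numbered libraries correlated at −0.19 to 0.41. Between WT ConA and KO ConA they correlated at −0.0071, 0.129, 0.405 and 0.115 for replicates 1 to 4, and in no pair of groups did all numbers pass 0.1, so the numbers were not taken to pair the mice.

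Without read depth, the error of low genes such as Ciita and the DM genes could not be separated from the spread between mice.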

Other observations

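Neutrophil and monocyte markers rose in both genotypes. Of 6 neutrophil markers 5 rose in WT (median 3.03) and 5 in KO liver (median 3.30), where 22% and 33.9% of all genes rose, with S100a8 at 5.78 (adjusted p = 8.31e-07) and 6.77 (adjusted p = 2.56e-08) by limma. Ly6g was the marker that did not rise (−1.15 in WT, adjusted p = 0.0631, and −0.21 in KO liver, adjusted p = 0.370, by limma). The summed TPM of the 6 was 5.27 to 11 in saline mice, and after ConA 315 to 554 in WT and 410 to 944 in KO mice, with KO ConA replicate 4 the lowest of its group. Of 6 monocyte markers 4 could be tested, and all 4 rose in each genotype, among them Chil3 (3.86 in WT, adjusted p = 6.72e-07 by limma) and Ly6c2 (2.10 in WT, adjusted p = 7.81e-05 by limma). No neutrophil or monocyte marker was called between KO ConA and WT ConA, where 0.428% of all genes tested were called. An unadjusted p under 0.05 was found there for 3 of 6 neutrophil markers and 0 of 4 monocyte markers. It was found for 1753 of all 10519 genes. Of 7 T cell markers 4 stood under 1 TPM in every library, and their sum was 1.09 to 3.02 TPM in saline mice, and after ConA 1.48 to 3.15 in WT and 2.47 to 4.73 in KO mice.

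Of the 8 endothelial markers, 7 were tested in KO saline against WT saline, and 5 were called higher in KO saline. They were Clec4g (0.98), Stab1 (0.92), Oit3 (0.81), Ptprb (0.75) and Fcgr2b (0.74). Of all 10459 genes tested there, 659 were called higher. None of the 5 endothelial calls held with the alike WT saline pair averaged. Hepatocyte markers moved both ways after ConA, with 4 of 6 lower in each genotype, 1 higher in WT and 2 higher in KO liver. Of all genes tested, 22% rose and 31% fell in WT, and 33.9% rose and 30.7% fell in KO liver.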
